A study of Enchytraeus crypticus with 30 samples.

Results

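Nickel nitrate (NiNO3) at its EC20 was compared with un-spiked soil after 7 days of exposure in *Enchytraeus crypticus*, a small white potworm of the annelids that is a standard test animal of soil ecotoxicology. The comparison was made by label and holds 6 of the 30 arrays of the series, with 3 arrays labelled NiNO3 EC20 for 7 days and 3 arrays labelled Control for 7 days. The EC20 is the concentration that lowers reproduction by 20%, here 40 mg of added Ni per kg of LUFA 2.2, a natural standard soil. The series has 10 conditions with 3 arrays each, which are NiNO3 and nickel nanoparticles (Ni-NPs), both at the EC20 and the EC50, and a control, at day 3 and at day 7. All animals were adults with a developed clitellum, the band of glandular skin that forms the cocoon, and were kept without food. Each array holds total RNA from whole bodies of a pool of 20 animals, so that a tissue that shrank and a lower amount of RNA per cell cannot be told apart.

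Nickel nitrate is a soluble salt that releases nickel ions into the soil water, from which soft-bodied worms take up metal through the skin and the gut. Nickel ions can take the place of other metal ions in proteins, and metal-exposed animals are known to raise proteins that bind metal, refold damaged proteins or remove reactive oxygen. The probes in the files carry the name of a sequence of the *E. crypticus* transcriptome and no gene name. A name that starts with contig is a sequence assembled from several reads, and a name that starts with GYUW2K is a single sequencing read. No function can therefore be given to any of the probes below, and they are described by their level, their change and their pattern over the conditions.

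Of 43750 gene probes, 24653 (56.35%) passed the scanner software's detection flag (signal positive and significant) on every one of the 30 arrays and were analysed, 12551 of them on contigs and 12102 on single reads. The level of a probe is its log2 signal minus the median of the analysed probes of the same array, so that 0 is the level of the middle probe of that array. The signal of a probe also depends on its sequence, so levels are compared between arrays for the same probe. On the 6 arrays, between 33339 and 35255 gene probes passed that flag, and no analysed probe was saturated. Replicate 3 of NiNO3 EC20 stood apart. It lay at 90.6 on the first principal component of the 30 arrays, which holds 32.25% of the variance, against -49.3 and -0.6 for the other two arrays of its group and -35.3 to 45.6 for the controls. It was scanned on a different day from the other 5 arrays, which shared 1 of the 3 scan days of the series. The smallest correlation within the NiNO3 EC20 group was 0.9395, between replicates 1 and 3, and the smallest among the controls was 0.964. Results are therefore also given without this array.

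A small set of transcripts differed between worms in NiNO3 EC20 soil and worms in control soil at day 7. The number of differentially expressed genes (DEGs), counted as probes with an adjusted p below 0.05, was 85 of 24653 (0.345%), of which 52 (0.211%) were higher and 33 (0.134%) were lower in NiNO3 EC20. The median absolute fold change was 3.04-fold over the probes that rose, from 1.74 to 20.4, and 2.87-fold over the probes that fell, from 1.67 to 8.03. Of the rises, 48 were over 2-fold, 15 over 4-fold and 6 over 8-fold, and of the falls 30, 6 and 1. These counts use the measured folds, also for the 6 rises that were well above background on no control array. There the measured fold is not reliable, as in contig02388, with 11.1-fold measured and a bound of at least 4.61-fold. The test was limma with one mean per condition in all 30 arrays and Benjamini-Hochberg adjustment over all analysed probes. At an unadjusted p below 0.05 the number was 1627 (6.6%).

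The 3 treated and the 3 control levels did not overlap in any of the 85 DEGs, and did not overlap in 8.38% of all analysed probes. The DEGs were chosen on these same 6 arrays, so nothing is read from that count. The median difference over all probes was -0.036 on the log2 scale, and the middle 50% of the probes lay between -0.232 and 0.189. The median standard error of a difference was 0.314. The smallest change that was called was 0.74 on the log2 scale. Changes of the same size and larger were often not called, since 625 probes differed by more than 1 on the log2 scale and 78 of them were DEGs. Of 38 probes that differed by more than 2, 21 were DEGs.

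**Figure D1:**
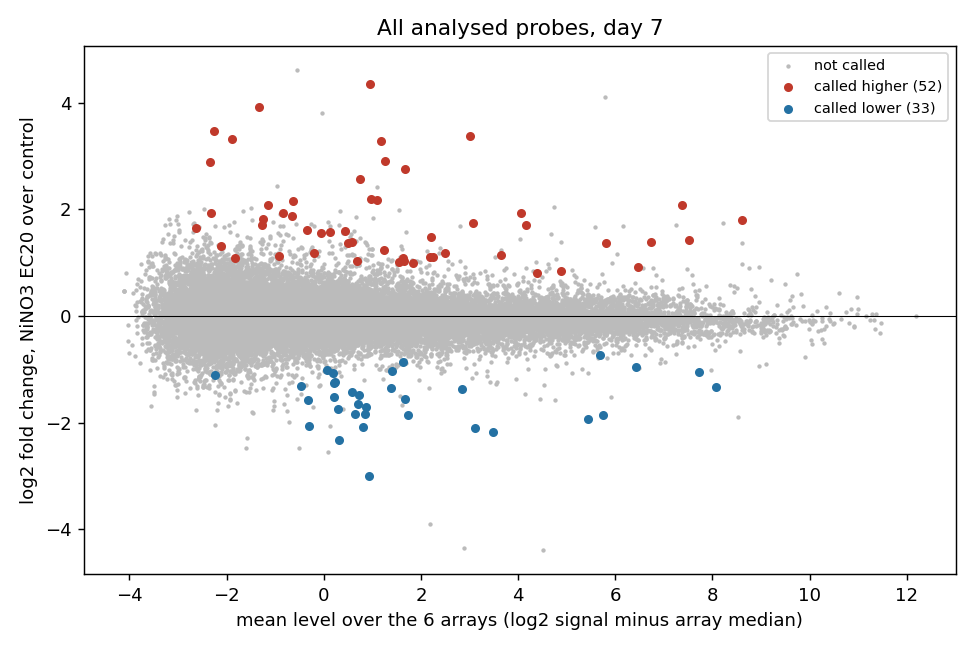
Log2 fold change of NiNO3 EC20 over control at day 7 against the mean level over the 6 arrays, for all 24653 analysed probes (grey, not called) with the 52 higher (red) and 33 lower (blue) DEGs. The DEGs lie over nearly the whole range of levels but not evenly. Of the 85, 63 had a mean level above the array median, 13 lay in the top decile of levels and 8 in the bottom quartile. Several grey points with a change of about 4 on the log2 scale were not called.

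The number of DEGs depended on the arrays. Without replicate 3 of NiNO3 EC20 it was 74, of which 57 were among the 85. It fell to 48 without replicate 2 of NiNO3 EC20, to 48, 54 and 36 without control replicates 1, 2 and 3, and to 63 without replicate 1 of NiNO3 EC20. With the spread estimated from the 6 arrays alone, limma called 0 probes (873 at an unadjusted p below 0.05) and the methods' t-test called 0 (1096).

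Slides 1 and 5 each held 1 control and 1 NiNO3 EC20 array, so that the change could be read within a slide. All 52 rises were positive on slide 1 and on slide 5, with medians of 1.49 and 1.57, and all 33 falls were negative on both, with medians of -1.62 and -1.63. Those 4 arrays also entered the fit that chose the DEGs, and the groups did not overlap in any DEG. The signs within a slide were therefore fixed in advance, and nothing is read from their counts. Over all analysed probes the median difference was 0.01 on slide 1 and -0.06 on slide 5. With slide as a fixed block the number of DEGs was 114, of which 70 were among the 85, and with scan day as a fixed block it was 122, of which 82 were among them. With the slide as a random block it was 189 and included all 85.

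The transcript with the largest called rise was contig07722. Its level was -1.40, -0.95 and -1.31 in the 3 controls and 2.85, 2.67 and 3.87 in the 3 NiNO3 EC20 replicates, with a gap of 3.62 between the groups. It moved from below the array median to well above it, by 4.35 on the log2 scale (SE 0.50, limma adjusted p = 3.76e-05), a 20.4-fold rise. Another background correction was normexp on the median signal, with an offset of 50 added to every corrected signal. With it the rise of contig07722 was 2.86 on the log2 scale (limma adjusted p = 0.00276). The offset by itself makes log2 changes smaller, most in dim probes. Its share was not separated from that of the background correction.

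GYUW2K402JE6WU, on a single read, was not well above background on any control array and was so on all 3 treated arrays. Its control levels were -2.74, -3.58 and -3.55, and its treated levels were 1.39, 0.34 and 0.15. Since the control value is only a bound, its rise is given as at least 10.2-fold (limma adjusted p = 1.71e-05). The bound sets the mean of the treated levels against the lowest signal that was well above background on each control array. Contig02388 and GYUW2K401DLQ92 had the same pattern. Contig02388 was at -3.26, -4.23 and -4.49 in the controls and at 0.14, -0.94 and -0.76 in the treated arrays, a rise of at least 4.61-fold (limma adjusted p = 2.36e-05). GYUW2K401DLQ92 was at -3.71, -3.82 and -3.84 in the controls and at -1.06, -1.08 and -0.57 in the treated arrays, a rise of at least 3.53-fold (limma adjusted p = 0.0071). Among the 52 rises, 42 were well above background on all 6 arrays and 6 on no control array. Over all analysed probes 78.42% were well above background on all 6 arrays, so nothing particular to the rises is read from the 42.

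GYUW2K402HVQN1 was above the array median in both groups. It was at 1.09, 1.62 and 1.24 in the controls and at 3.84, 4.90 and 5.36 in NiNO3 EC20, a 10.4-fold rise (log2 3.38, SE 0.42, limma adjusted p = 1.17e-04). GYUW2K401AUZ0K had the largest standard error of the 10 largest rises. It was at -4.07, -2.83 and -3.74 in the controls and -1.39, -0.27 and 0.97 in the treated arrays, a change of 3.32 on the log2 scale (SE 0.54, limma adjusted p = 0.00284). Its groups did not overlap, although the treated levels spanned more than the gap between the groups. It was well above background on 1 control array.

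Contig17562 was at -0.64, -1.24 and 0.52 in the controls and 2.91, 2.22 and 3.35 in NiNO3 EC20, a 9.71-fold rise (limma adjusted p = 0.00224). GYUW2K401BYI0P was at -0.50, 0.17 and -0.27 against 2.03, 2.51 and 3.61, a 7.55-fold rise (limma adjusted p = 7.04e-04). The level of replicate 3 was the highest of the treated levels in both. Contig01277 was at 0.70, 0.12 and 0.10 in the controls and 3.71, 2.66 and 2.80 in NiNO3 EC20, a 6.74-fold rise (limma adjusted p = 1.71e-05), with replicate 1 the highest in both groups. Contig24978 rose 5.94-fold (limma adjusted p = 1.71e-05), from -0.88, -0.58 and -0.15 to the narrow range of 2.09, 1.94 and 2.06.

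All 10 of these rises were called in each of the 6 fits that left out 1 of the 6 arrays. With normexp on the median signal and its offset of 50 all 10 were smaller, also those well above background on all 6 arrays. Their log2 changes were then 3.0 for GYUW2K402HVQN1, 2.3 for contig17562, 2.07 for contig01277, 1.89 for GYUW2K401BYI0P and 1.52 for contig24978. They were 1.1 for GYUW2K402JE6WU and 0.73 for contig02388, while GYUW2K401AUZ0K (0.95, limma adjusted p = 0.479) and GYUW2K401DLQ92 (0.6, limma adjusted p = 0.841) were not called.

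**Figure D2:**
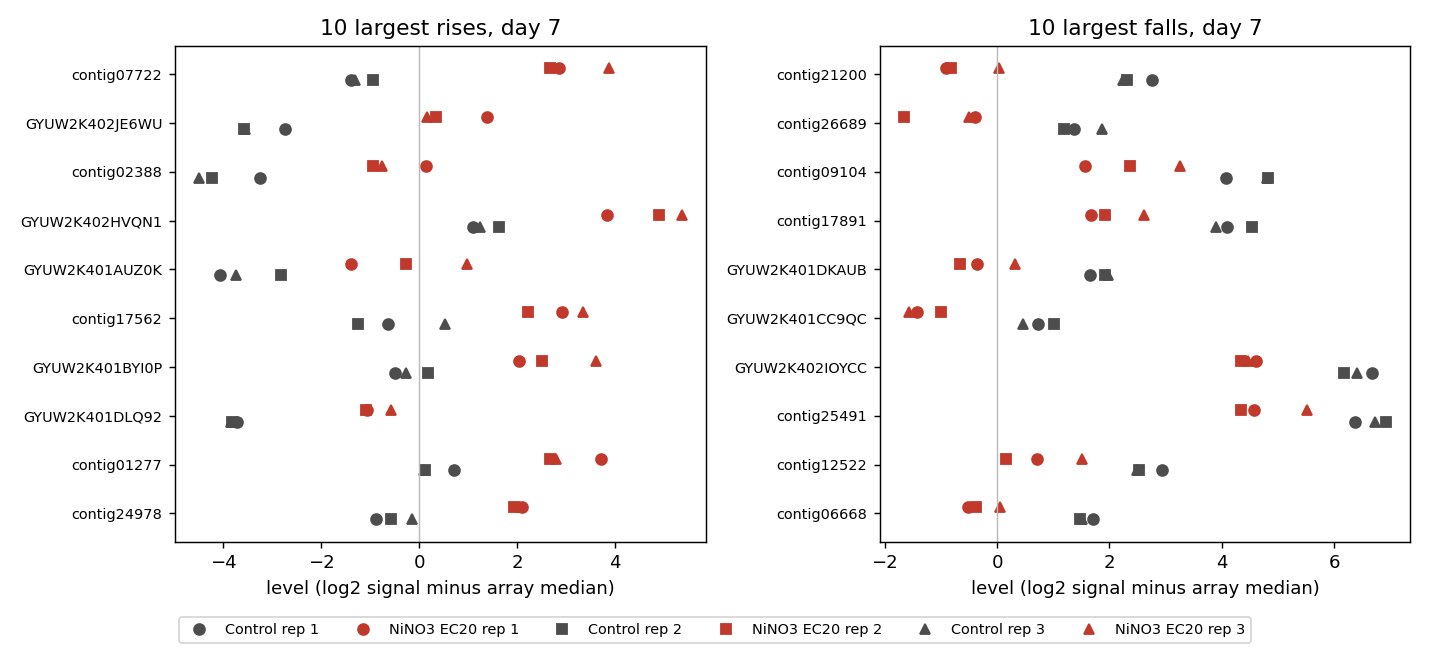
Level on each of the 6 arrays of the 10 DEGs with the largest rise (left) and the 10 with the largest fall (right), with control arrays in grey, NiNO3 EC20 arrays in red and the replicate number by the shape of the point. The changes run from the 20.4-fold rise of contig07722 to the 3.59-fold fall of contig06668. In no probe do the red and grey points overlap, which was a condition for showing it.

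The transcript with the largest called fall was contig21200. Its level was 2.76, 2.32 and 2.25 in the controls and -0.90, -0.82 and 0.03 in NiNO3 EC20, an 8.03-fold fall (log2 -3.0, SE 0.34, limma adjusted p = 3.12e-05). It was the only fall over 8-fold among the DEGs, and it was called in each of the 6 fits that left out 1 array. With normexp on the median signal its change was -1.88 on the log2 scale (limma adjusted p = 8.6e-05).

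GYUW2K401CC9QC fell 4.17-fold (limma adjusted p = 0.00284), from 0.73, 1.01 and 0.46 to -1.43, -0.99 and -1.56. Contig06668 fell 3.59-fold (limma adjusted p = 1.74e-04), from 1.70, 1.48 and 1.52 to -0.52, -0.37 and 0.06. These too were called in each of the 6 fits that left out 1 array. With normexp on the median signal GYUW2K401CC9QC was not called (-0.83 on the log2 scale, limma adjusted p = 0.172), and the change of contig06668 was -1.12 (limma adjusted p = 6.73e-04). The controls lay close together in both probes.

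The other 7 large falls lost the call in most or several of those fits. Contig17891, GYUW2K401DKAUB, contig25491 and contig12522 were called in 1 of the 6, contig09104 in 2, and contig26689 and GYUW2K402IOYCC in 3. Contig26689 went from 1.37, 1.2 and 1.86 to -0.39, -1.66 and -0.50, a 5.04-fold fall (limma adjusted p = 0.0178, at most 0.128 with 1 array left out). Contig09104 went from 4.08, 4.82 and 4.81 to 1.56, 2.36 and 3.26, a 4.52-fold fall (limma adjusted p = 0.0147, at most 0.12 with 1 array left out). In contig09104 the treated replicate 3 lay nearest to the controls. Contig17891 went from 4.10, 4.53 and 3.90 to 1.67, 1.92 and 2.61, a 4.31-fold fall (limma adjusted p = 0.0255). GYUW2K401DKAUB went from 1.65, 1.92 and 1.97 to -0.35, -0.66 and 0.32, a 4.22-fold fall (limma adjusted p = 0.0298). Replicate 3 was again the treated array nearest to the controls in both.

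All of these other large falls started from above the array median, and the last 3 were the smallest among them. GYUW2K402IOYCC went from 6.67, 6.17 and 6.40 to 4.61, 4.35 and 4.47, a 3.84-fold fall (limma adjusted p = 0.0138). Contig25491 went from 6.37, 6.93 and 6.73 to 4.57, 4.35 and 5.51, a 3.65-fold fall (limma adjusted p = 0.0456, and 0.0505 after MedianCD normalization). Contig12522 went from 2.94, 2.52 and 2.49 to 0.72, 0.16 and 1.51, a 3.63-fold fall (limma adjusted p = 0.019). Of the 33 falls, 32 were well above background on all 6 arrays, against 78.42% of all analysed probes.

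The median level of the 52 rises was -0.12 in the controls and 2.06 in NiNO3 EC20. For the 33 falls it was 1.78 in the controls and -0.07 in NiNO3 EC20. The median SD between replicates was smaller in the controls (0.201 for the rises and 0.18 for the falls) than in NiNO3 EC20 (0.354 and 0.365). Over all analysed probes the median SD was 0.317 in the controls and 0.449 in NiNO3 EC20, so the spread was larger in NiNO3 EC20 over the whole array too.

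The 5 DEGs with the highest mean level over the 6 arrays were 3 rises and 2 falls. Contig10742 was at 7.71, 7.68 and 7.71 in the controls and at 9.71, 9.11 and 9.68 in NiNO3 EC20, a 3.47-fold rise (limma adjusted p = 0.00224). Contig11434 was at 6.61, 6.28 and 6.10 against 8.05, 8.30 and 8.89, a 4.25-fold rise (log2 2.09, SE 0.26, limma adjusted p = 1.2e-04). Both were called in each of the 6 fits that left out 1 array.

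Contig14832 was at 6.81, 6.92 and 6.70 in the controls and at 8.56, 7.85 and 8.31 in NiNO3 EC20, a 2.7-fold rise (limma adjusted p = 0.0246). Contig02579 fell 2.52-fold (limma adjusted p = 0.0313), from 8.65, 8.82 and 8.77 to 7.43, 6.93 and 7.87. Contig07287 fell 2.08-fold (limma adjusted p = 0.0259), from 8.32, 8.03 and 8.38 to 6.88, 7.06 and 7.63. The groups were separate in all 3 probes, which was a condition for naming them. Of the 6 fits that left out 1 array, contig14832 and contig02579 were called in 1 and contig07287 in 2.

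To see whether the change was already present at day 3, the members were followed in worms exposed to the same NiNO3 EC20 soil for 3 days and compared with the day 3 controls. No array is common to the day 3 and day 7 comparisons, although slide 1 held arrays of both and they share 1 estimate of the spread. Of the 85 DEGs of day 7, 84 had the same direction at day 3. Among the 52 rises 51 were positive at day 3, with a median of 0.96 on the log2 scale, and all 33 falls were negative, with a median of -1.14. Over all analysed probes 44.47% were positive at day 3, with a median of -0.039.

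Called in the same direction at day 3 were 20 of the 52 rises, where 0.174% of all analysed probes were called higher, and 15 of the 33 falls, where 0.183% were called lower. No member was called in the opposite direction. The 35 shared probes were 41.2% of the DEGs of day 7 and 39.8% of the 88 DEGs of day 3 (0.357% of all analysed probes).

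Contig01277 had the smallest adjusted p at day 3, where it rose by 3.55 on the log2 scale (limma adjusted p = 2.36e-07) against 2.75 at day 7. Contig24978 rose by 2.48 at day 3 and 2.57 at day 7, and contig21200 fell by 3.06 at day 3 and 3.0 at day 7. In these 3 probes the change was called at both days and differed by less than 1 on the log2 scale. GYUW2K402JE6WU was called at both days too, at levels of 2.16, 1.15 and 0.54 in NiNO3 EC20 at day 3 against -2.15, -2.44 and -2.48 in the day 3 controls. Its size is not compared between the days, since it was not well above background on any day 7 control array.

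Other large changes of day 7 were not called at day 3. The change of contig07722 at day 3 was 0.15 (limma adjusted p = 1.0), that of GYUW2K401AUZ0K 0.16 (1.0) and that of contig17562 0.43 (1.0). Among the falls, the change of GYUW2K401CC9QC at day 3 was -0.49, that of contig26689 -0.70 and that of contig17891 -0.74, all with a limma adjusted p of 1.0. Their size at day 7 was 2.06 to 4.35 on the log2 scale. None of them passed the test of the difference between the days given below. From day 3 to day 7 the control mean of contig17562 went from 1.88 to -0.45 and its NiNO3 EC20 mean from 2.31 to 2.83. In contig17891 these means went from 2.13 to 4.18 and from 1.4 to 2.07. In contig26689 they went from 0.18 to 1.48 and from -0.52 to -0.85. The control mean moved more in these probes, and less in contig07722, GYUW2K401AUZ0K and GYUW2K401CC9QC.

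**Figure D3:**
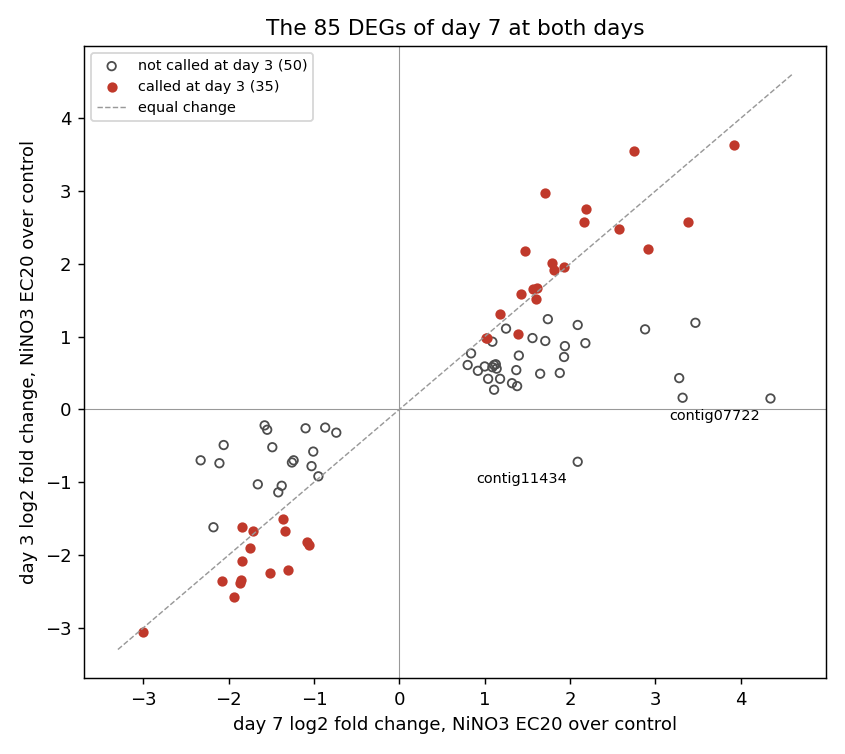
Log2 fold change of NiNO3 EC20 over control at day 3 against that at day 7, for the 85 DEGs of day 7, with filled points for the 35 that were also called at day 3. Most points lie in the quadrants of equal sign, contig07722 lies near 0 at day 3, and contig11434 is the 1 probe with opposite signs.

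To ask whether the response changed from day 3 to day 7, the interaction of treatment and day was tested, and 1 of 24653 probes (0.00406%) was called, with 497 (2.02%) at an unadjusted p below 0.05. This was contig11434, the probe that rose 4.25-fold at day 7. At day 3 its change was -0.72 on the log2 scale (SE 0.26, limma adjusted p = 0.539), and the interaction was 2.81 (limma adjusted p = 0.00222). At day 3 its levels were 5.96, 5.93 and 5.68 in NiNO3 EC20 and 6.71, 6.06 and 6.98 in the controls, so that all 3 treated levels lay below all 3 control levels. At day 7 the order was reversed. The interaction of contig07722 was larger, 4.2 on the log2 scale (SE 0.71), but did not pass the threshold (limma adjusted p = 0.0569). With slide as a fixed block no interaction was called (951 at an unadjusted p below 0.05), and none with only the 12 arrays compared (403).

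The reference level of the members also differed between the 2 control groups. The day 7 controls lay below the day 3 controls in 37 of the 52 rises (median -0.26) and in 13 of the 33 falls (median 0.23), against 53.61% of all analysed probes (median -0.039). The day 7 controls entered the choice of the members. The NiNO3 EC20 levels of day 7 lay beyond all 6 control levels of both days in 74 of the 85 DEGs, 43 rises and 31 falls. All 85 already lay beyond the day 7 controls, so only the day 3 controls could lower this count. Over all analysed probes, 2066 had groups that did not overlap at day 7. Of all analysed probes, 355 (1.44%) lay above and 527 (2.14%) below all 6 control levels. Contig17562, GYUW2K401DLQ92 and contig14832 among the named rises and contig17891 among the named falls were not beyond all 6.

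The members were also read in the other 3 treatments at day 3, each against the day 3 controls, which these comparisons share. In NiNO3 EC50 at day 3, 24 rises and 20 falls were called in the same direction, where 0.341% of all analysed probes were called higher and 0.381% lower. In Ni-NPs EC50 at day 3 these numbers were 20 and 11, where 0.118% and 0.114% were called. In Ni-NPs EC20 at day 3 they were 6 and 1, where 0.0446% and 0.00406% were called. The median change was 1.14, 0.97 and 0.62 on the log2 scale over the rises and -1.45, -0.94 and -0.75 over the falls, in the same order of treatments.

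To compare the doses, worms in NiNO3 EC50 soil (60 mg of added Ni per kg) were compared directly with worms in NiNO3 EC20 soil at day 7. No probe was called by limma in 24653, 1124 (4.56%) were at an unadjusted p below 0.05, the smallest adjusted p was 0.379, and the methods' t-test called 0 (1049). Without replicate 3 of NiNO3 EC50, 13 probes were called, all lower at the EC50. The change against the day 7 controls is given side by side, since both doses share those controls. Over the 52 rises the median change was 1.6 at the EC20 and 1.62 at the EC50, and over the 33 falls it was -1.52 and -1.82. The median of the direct difference between the doses was 0.18 over the rises and -0.3 over the falls, against -0.013 over all analysed probes. The members were chosen on the EC20 arrays, which enlarges the EC20 values relative to the others, so no order of the doses is read from these medians.

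For the single members the intervals of the dose difference were wide. Contig07722 was higher at the EC50 by 0.73 on the log2 scale, with a 95% interval of -0.31 to 1.77. GYUW2K402JE6WU differed by 0.03 (-0.81 to 0.86) and contig11434 by -0.01 (-0.55 to 0.53). None of these intervals excludes 0. Contig21200 was lower at the EC50 by 0.57 (a difference of -0.57, with an interval of -1.28 to 0.13). The widest differences among the named probes were 1.51 for GYUW2K401AUZ0K (0.39 to 2.63, limma adjusted p = 0.978) and -1.11 for GYUW2K402IOYCC (-1.88 to -0.35, limma adjusted p = 0.963), and neither passed the threshold. The interval also excluded 0 for GYUW2K401BYI0P (0.02 to 1.75), contig25491 (-1.92 to -0.21), contig12522 (-1.61 to -0.08), contig06668 (-1.01 to -0.03) and GYUW2K402I9BJX (-1.21 to -0.06), each with a limma adjusted p of 0.978. All of these lay toward a larger change at the EC50. They were picked by their intervals, so no order of the doses is read from them. For the other named probes the interval held 0. Among those, the rises GYUW2K401DLQ92 (-0.65), contig17562 (-0.29) and contig11434 (-0.01) lay toward a smaller change at the EC50. The intervals are not adjusted for the number of probes.

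To compare the salt with the particles, worms in Ni-NPs EC20 soil were compared directly with worms in NiNO3 EC20 soil at day 7. The EC20 of the 2 forms is the same effect on reproduction and not the same mass of nickel. There were 15 DEGs (0.0608%), 10 (0.0406%) higher and 5 (0.0203%) lower in Ni-NPs. This split depended on the scaling, with 7 higher and 11 lower after 75th percentile scaling and 24 higher and 6 lower after SVCD normalization. The 2 groups have no slide in common. On the scan day of NiNO3 EC20 replicate 3, 2 of the 3 Ni-NPs arrays and 1 of the 3 NiNO3 arrays were scanned. The count was 67 with scan day as a fixed block and 6 with slide as a fixed block, 1 of them among the 15. It was 10, 4 and 3 without NiNO3 EC20 replicates 1, 2 and 3, and 37, 1 and 26 without Ni-NPs EC20 replicates 1, 2 and 3. With only the 6 arrays compared, limma called 0 (603 at an unadjusted p below 0.05), and the methods' t-test called 0 (884).

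The NiNO3 EC20 arrays enter both this comparison and the one against control. Contig02388 was at -3.45, -2.74 and -3.42 in Ni-NPs against 0.14, -0.94 and -0.76 in NiNO3, a measured difference of -2.68 on the log2 scale (SE 0.38, limma adjusted p = 0.00674). Only 1 of its 3 Ni-NPs levels was well above background. GYUW2K402IQF2Y was at -1.05, -1.30 and -1.17 in Ni-NPs against 0.18, 0.39 and 0.58 (difference -1.56, limma adjusted p = 0.00674), while its 3 controls were at -0.77, -0.69 and -0.93. Its rise in NiNO3 EC20 over the controls was 2.26-fold (limma adjusted p = 0.0162). The Ni-NPs levels of both probes lay apart from the NiNO3 levels, on which they were chosen, so nothing is read from it.

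Contig11434 was at 6.39, 6.73 and 7.15 in Ni-NPs against 8.05, 8.30 and 8.89 in NiNO3 (difference -1.66, limma adjusted p = 0.0133). Contig07722 was at 0.80, -0.66 and 0.78 in Ni-NPs against 2.85, 2.67 and 3.87 (difference -2.82, limma adjusted p = 0.026). Its Ni-NPs levels lay between the control and the NiNO3 levels.

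Among the probes higher in Ni-NPs, GYUW2K401CC9QC was at 0.65, 0.95 and 0.44 against -1.43, -0.99 and -1.56 in NiNO3 (difference 2.01, limma adjusted p = 0.0213). GYUW2K402I9BJX was at 1.43, 1.98 and 1.35 against 0.17, -0.43 and 0.06 (difference 1.65, limma adjusted p = 0.0213). Its controls were at 1.76, 1.75 and 1.81, and it fell 3.59-fold in NiNO3 EC20 (limma adjusted p = 0.00136). Contig09104 was at 4.34, 5.11 and 4.95 against 1.56, 2.36 and 3.26 (difference 2.41, limma adjusted p = 0.0259). In all 3 probes the Ni-NPs and NiNO3 levels did not overlap, but the probes were chosen by this same comparison. Nothing is read from that separation.

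**Figure D4:**
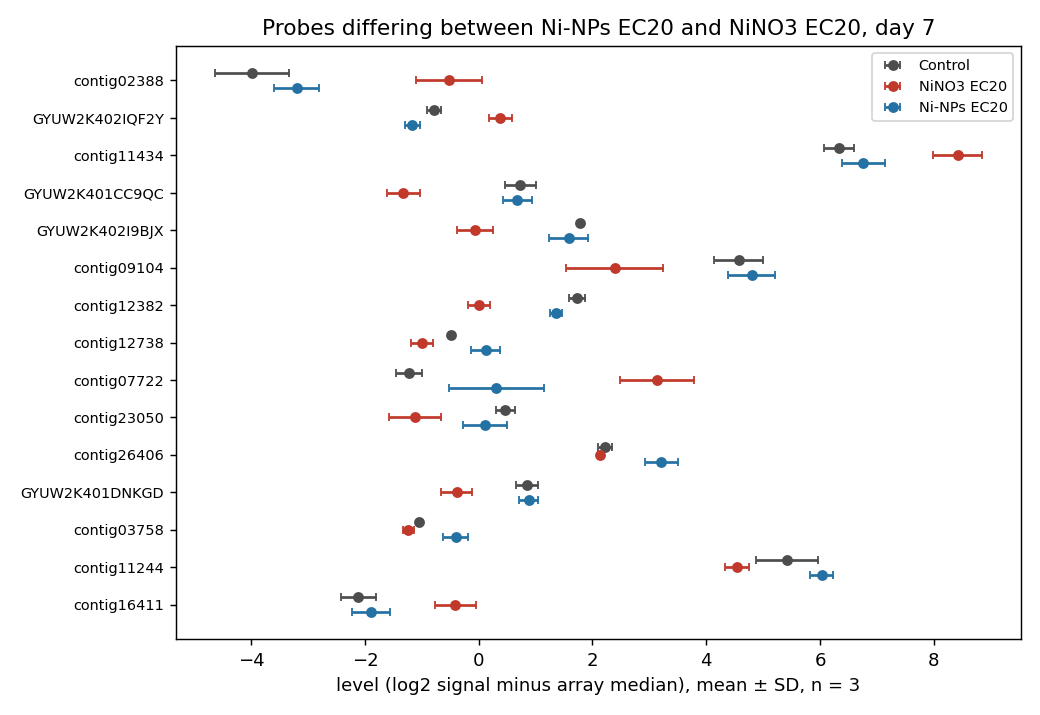
Mean level with SD (n = 3) in control (grey), NiNO3 EC20 (red) and Ni-NPs EC20 (blue) at day 7 of the 15 probes called between the 2 forms of nickel, ordered by p. For contig02388 the mean was -0.52 in NiNO3 and -3.20 in Ni-NPs, and for contig26406 the NiNO3 mean of 2.13 lay close to the control mean of 2.22.

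Other members with large changes against control were not called between the forms. GYUW2K402JE6WU differed by -1.54 between the forms (limma adjusted p = 0.175), contig24978 by -0.97 (0.23) and contig21200 by 0.91 (0.399). Against the shared day 7 controls, the median change of the 52 rises was 1.6 in NiNO3 EC20, 0.76 in Ni-NPs EC20 and 1.34 in Ni-NPs EC50. Over the 33 falls it was -1.52, -0.50 and -1.03. The members were chosen for their change in NiNO3 EC20, which enlarges those values relative to the other treatments. For contig07722 these 3 values were 4.35, 1.53 and 3.81, for contig11434 2.09, 0.43 and 1.54, and for contig21200 -3.0, -2.09 and -2.48. The number of DEGs over all probes was 85 (0.345%), 3 (0.0122%) and 48 (0.195%), and it was 330 (1.34%) in NiNO3 EC50.

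**Figure D5:**
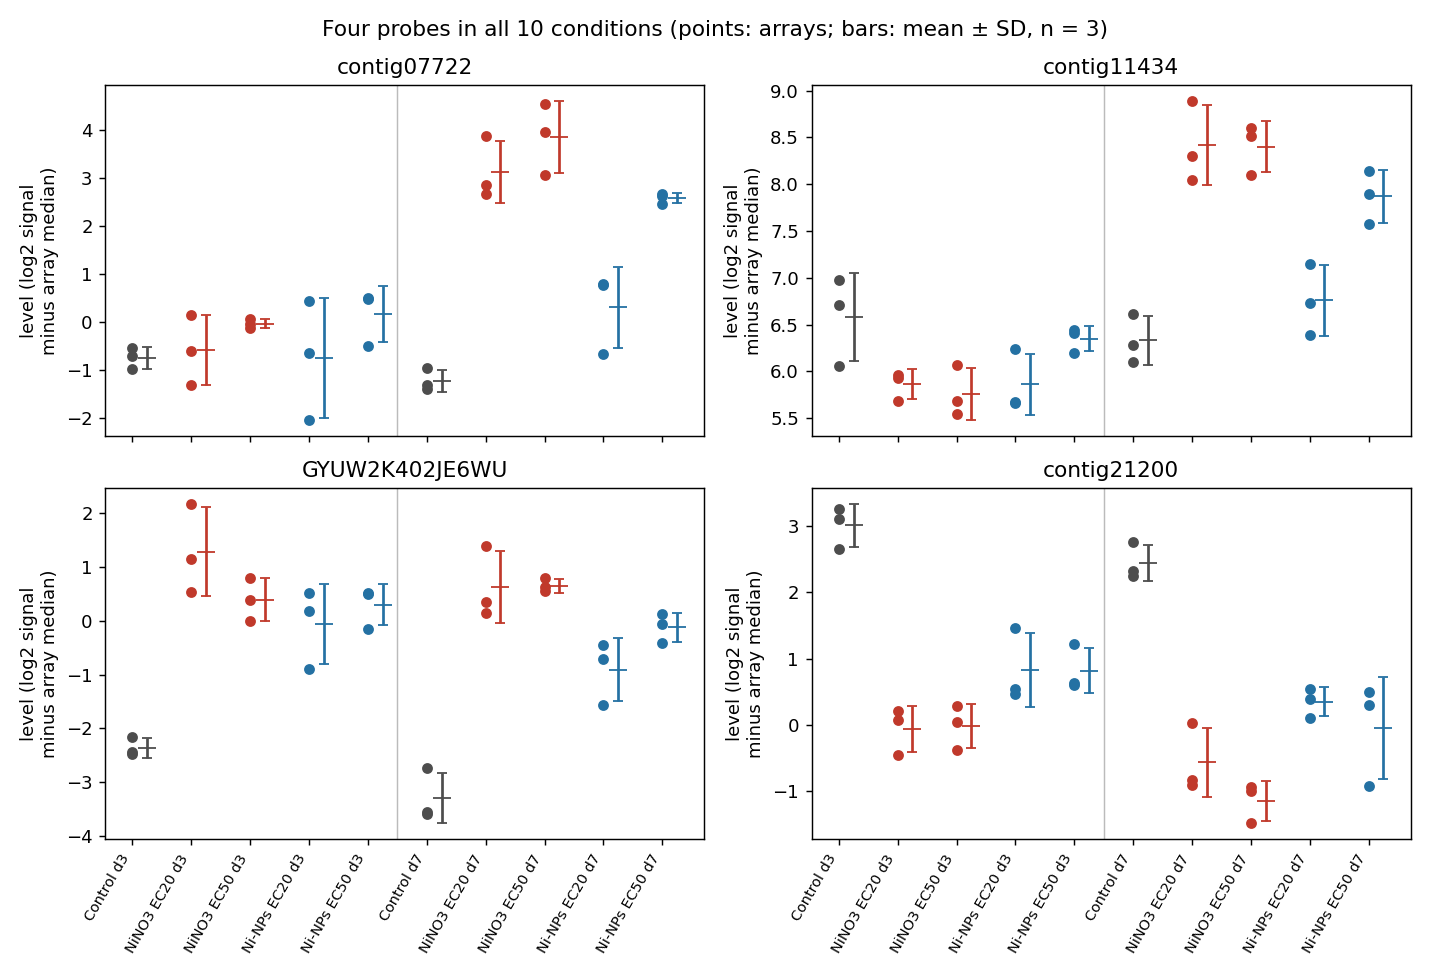
Level of 4 probes on the 30 arrays by condition, with points for arrays and the mean with SD (n = 3) beside them, controls in grey, NiNO3 in red and Ni-NPs in blue, and day 3 left of the line. Contig07722 and contig11434 had their highest mean levels in the 2 NiNO3 conditions of day 7, whereas GYUW2K402JE6WU was higher and contig21200 lower than the control of the same day in every nickel condition.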

How the data were processed

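Single-color Agilent arrays were measured for 30 pools of 20 worms, and each array was assigned to its condition and replicate from its label. The processed signal is the spot intensity that the authors deposited from Agilent Feature Extraction 10.7.3.1, on a linear scale after the software's background correction with no normalization between arrays. The deposited summary of the series holds the same intensity values, with differences of up to 0.00719 on the log2 scale. Gene probes flagged as detected (IsPosAndSignif) on every one of the 30 arrays were kept, and the median of each array was subtracted from log2 intensities (Median normalization).

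limma 3.58.1 in R 4.3.3 was used to test for DEGs, with 1 mean per condition over all 30 arrays with 20 residual degrees of freedom, with Benjamini-Hochberg adjustment in each comparison over 24653 probes. Replicates were separate biological pools. The number of arrays limits the precision.

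The probes named were the DEGs with groups that do not overlap, well above background on all arrays of a group and not saturated, as the 10 largest rises, the 10 largest falls and the 5 highest mean levels, with up to 5 probes of the smallest p in the interaction, dose and form comparisons. No gene names or probe sequences were used, so the gene lists that had been prepared were not applied. The members and lists were chosen with earlier results of these data known. The alternatives covered scaling, background correction, filters, tests, blocks, and leaving out arrays.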

Additional observations from a re-analysis of the deposited data

Results flagged for a closer look

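The response to NiNO3 EC20 differed between day 7 and day 3 in 1 probe by the test of the difference itself. In contig11434 the change was 2.09 on the log2 scale at day 7 and -0.72 at day 3, a difference of 2.81 (limma adjusted p = 0.00222). All 3 NiNO3 levels lay above all 3 control levels at day 7 and below them at day 3.

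Among the 19097 gene probes left out of the comparisons because their signal was not positive and significant on all 30 arrays, 120 were detected on all 3 NiNO3 EC20 arrays and on no control array of day 7, and 43 the other way round. Of the 120, 2 were well above background on all 3 NiNO3 EC20 arrays, and of the 43, 0 were so on all 3 controls. These were contig12978, with a mean level of -1.87 (SD 0.22, n = 3) in NiNO3 EC20, and contig08194, with -1.29 (SD 0.87, n = 3). Both were detected on all 3 NiNO3 EC50 arrays of day 7. At day 3, contig12978 was detected on 1 NiNO3 EC20 and 0 control arrays, and contig08194 on 3 and 2. Detection alone was uneven between the days, with 17 and 441 probes for the same pair of patterns at day 3, and 0 of the 120 and 3 of the 43 had the same pattern at both days. The differences in detection were not tested.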

How the results depend on the processing

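Of the 27 named probes, 16 passed the threshold in all 6 fits that left out 1 of the 6 arrays and 11 did not. In 617 recomputed values no change reversed, and 128 were no longer called. Each named probe was a DEG with groups that did not overlap, so leaving out an array could not reverse its sign. Nothing is therefore read from the absence of reversals. The count of 85 was 28 with normexp on the median signal and an offset of 50, an alternative chosen after seeing the data. It was 31 with no filter on dim probes, 189 with slide as a random block, and 0 with only the arrays compared and with the methods' t-test. Leaving out 1 array gave 36 to 74. With only the arrays of the scan day that held the most arrays, also chosen after seeing the data, it was 89, 56 of them among the 85. MedianCD gave 85, SVCD 95 and Quantile 104. No normexp was run on the mean signal, which was not used here. The cause of these differences was not tested.

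The count between Ni-NPs EC20 and NiNO3 EC20 (15, of which 66.7% were higher in Ni-NPs) was 20 after Quantile, 18 after 75th percentile scaling (38.9% higher), 22 after MedianCD (77.3%) and 30 after SVCD (80%). It was 1 with normexp and with no filter, 31 with probes well above background on all arrays, 0 with only the arrays compared and with the methods' t-test, 6 with slide and 67 with scan day as a fixed block, and 1 to 37 with 1 array left out. The count between NiNO3 EC50 and NiNO3 EC20 (0) was 8 with normexp and 0 to 13 with 1 array left out. The interaction count (1) was 2 after Quantile, 75th percentile, MedianCD and SVCD scaling, with probes well above background on all arrays and with slide as a random block. It was 0 with normexp, no filter, only the arrays compared and slide as a fixed block, and 1 to 2 with 1 array left out.

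Replicate numbers were not taken as pairs. The deviations of arrays of the same number correlated by 0.427, -0.163 and 0.229, which do not share a sign. The arrays of replicate 1 also shared slide 1, so number and slide cannot be told apart there. On slide 5, which held arrays of different numbers, the correlation was -0.094. With the replicate block the count was 102 against control (84 of the 85 among them), 27 between the forms, 0 between the doses and 1 for the interaction.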

Other observations

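Of the 6 largest differences that were not called, chosen after their values were seen, 2 were high on a single array. Contig00660 was at -3.50, -2.43 and -2.65 in the controls and at -1.78, 8.67 and -1.62 in NiNO3 EC20 at day 7. Contig02883 was at -2.05, -2.57 and -1.19 in the controls and at -1.08, 8.85 and -2.13 in NiNO3 EC20. Both were high on the array of replicate 2 alone, and their mean differences of 4.62 and 3.81 on the log2 scale had standard errors of 1.49 and 1.54 (limma adjusted p = 0.327 and 0.585).

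GYUW2K401EIO4R varied in both groups, at 10.91, 0.32 and -0.02 in the controls and 2.72, 10.65 and 10.16 in NiNO3 EC20, with a difference of 4.11 (SE 2.91, limma adjusted p = 0.956). GYUW2K402HZ4GY was at 2.12, 8.81 and 9.21 in the controls and 5.29, 1.15 and 0.50 in NiNO3 EC20 (difference -4.40, SE 2.01, limma adjusted p = 0.70). GYUW2K401CVQAV was at 0.07, 5.67 and 6.66 in the controls and 2.57, 0 and -1.88 in NiNO3 EC20 (difference -3.90, SE 2.25, limma adjusted p = 0.883). In GYUW2K401DLXG6 the groups did not overlap, at 4.83, 4.34 and 6 in the controls and 2.11, -2.16 and 2.17 in NiNO3 EC20 (difference -4.35, SE 1.55, limma adjusted p = 0.453). Of the 17 probes that differed by more than 2 on the log2 scale and were not called, 8 had groups that overlapped, and their standard errors were between 0.47 and 2.91.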
